A study of Mus musculus with 14 samples.

Results

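The SOX transcription factors carry an HMG box, a DNA-binding domain that bends DNA at short AT-rich sites, and they are grouped by the likeness of that box. Members of the SoxF group (Sox7, Sox17 and Sox18) act in endothelial cells of blood and lymph vessels, where they share much of their function, and Sox17 also has a role in endoderm. Sox2, of the SoxB1 group with Sox1 and Sox3, maintains the epithelium of the conducting airways and is low in alveolar cells. Sox4 and Sox11 belong to the SoxC group, known from progenitor cells and from many carcinomas. Sox5, Sox6 and Sox13 are SoxD genes, Sox10 is a SoxE gene of neural crest and Schwann cells, and Sox15 belongs to SoxG.

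All probe sets whose single platform gene symbol begins with Sox and a digit were taken, so that membership rested on the name and not on a signal, though the family itself was picked with earlier results of these data known. They were 22 of the 12422 probe sets and covered 13 of the 8251 genes named on the array. RNA of 14 samples of mice aged 9 to 13 months, all in the CD2F1-(DBA/2xBalb/C) background, had been hybridized to Affymetrix Murine Genome U74v2 arrays. Control lung came from 4 non-transgenic animals. Papillary lung adenocarcinomas came from hemizygous SPC/myc mice, which express c-Myc under a surfactant protein C promoter in respiratory epithelium. They were 3 pools of 3 to 4 small tumors (about 1 mm), 4 single tumors of middle size (about 4 to 5 mm) and 3 large ones (at least 10 mm). Each pool or tumor was from an animal of its own and had been cut from the lung by eye, whereas control samples were lung tissue with all its cell types. Tumor-bearing and control animals therefore differed in transgene and in the tissue taken at once, and no lung tissue of transgenic animals was among the 14 arrays.

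The values were MAS 5 signals, a measure of brightness scaled on each array to a target of 250, and the study took a signal of 70 or more, together with a detection call of present, as its mark of expression. Detection calls were not used here, so 70 is a level of brightness alone. Between 5630 and 7575 probe sets reached 70 on an array. The lowest of these numbers came from the third middle-sized tumor, on which 25.2% of the values were 0 or barely above it, which no other array had, and these were left out as missing. This removed that tumor from the tested Sox4 and Sox11 probe sets and the second Sox18 probe set. It was also removed from an untested probe set each of Sox3 and Sox6. Signals below 70 were set to 70 before log2 values were compared, and differences were tested with limma, adjusted over 6914 probe sets. These had reached 70 on 3 or more arrays, and where a gene had several probe sets the one with the highest mean signal was kept. No probe set's level is set against another's here, since probes differ in brightness.

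Of the 13 genes, 10 had a probe set that passed this filter and 3 (Sox1, Sox5 and Sox6) stayed below 70 on every array. Comparing all tumors with control lung, 1 of the 10 was higher (Sox4) and 6 were lower (Sox2, Sox7, Sox11, Sox13, Sox17 and Sox18), while Sox3, Sox10 and Sox15 did not pass an adjusted p of 0.05. Across the 6914 probe sets as a whole, 23.6% rose and 21.0% fell, so that a change of some kind was common on these arrays. Sox7, Sox17 and Sox18 had every tumor below every control lung, and so had Sox11 in the 9 tumors with a value. Of all tested probe sets, 12.7% had this. Sox4 had the 9 tumors with a value above every control lung, which 11.0% had. A second Sox4 probe set, with a value on every tumor, overlapped with control lung and did not pass. Sox11 passed the filter through the control lungs alone, so that a difference was built into its passing.

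**Figure D1:**
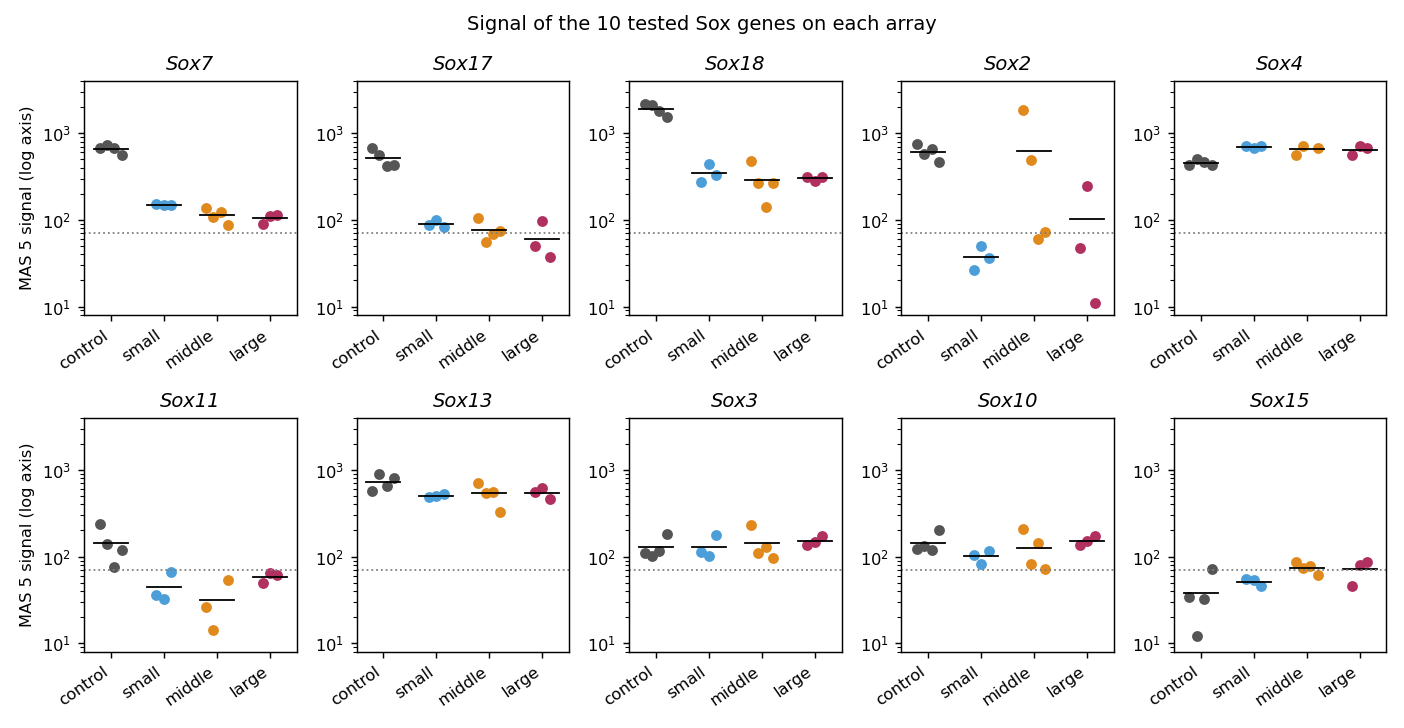
MAS 5 signal (log axis) of the 10 tested Sox genes on each array, by group, with 1 point per array, a bar at the mean of each group, and a dotted line at 70. Sox7, Sox17 and Sox18 lie lower on all 10 tumor arrays than on the 4 control arrays, Sox4 lies higher on 9 of 9, and Sox2 spreads from 11.1 to 1853 among the tumors.

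The SoxF genes fell in tumors of every size. Sox18 (chromosome 2, 181669837 to 181671640, GRCm38.p6) had signals of 2170.3, 2132, 1800.2 and 1537 in the 4 control lungs. It was at 275, 436 and 328 in the small tumor pools. The middle-sized tumors gave 482, 267, 141 and 267, and the large tumors 315, 279 and 312. No tumor came near the lowest control, and the highest tumor was the first middle-sized one. The log2 fold change over all tumors was -2.66 (SE 0.24, limma adjusted p = 6.2e-07), a 6.30-fold lower level on the floored log2 scale. This probe set carries the array maker's mark for probes shared with similar transcripts, and a second Sox18 probe set, marked for a sequence family, went from 1367 ± 178 (SD, n = 4) to 235 ± 51.1 (SD, n = 9), with a log2 fold change of -2.56 (SE 0.17).

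Sox17 (chromosome 1, 4490928 to 4497426) was at 682, 564, 413 and 435 in control lung. Its signals were 88.0, 101 and 82.7 in the small tumor pools, 106, 55.6, 68.9 and 74.8 in middle-sized tumors, and 49.3, 95.9 and 37.1 in large tumors. All 3 small pools, 2 of 4 middle-sized and 1 of 3 large tumors were at 70 or above, so that most of the spread among the larger tumors lay near or below 70. The log2 fold change was -2.64 (SE 0.17, limma adjusted p = 2.3e-08). A second Sox17 probe set stood between 170.2 and 299 in control lung and between 8.17 and 14.1 in the tumors. As all tumors were below 70 there, this probe set was at least 3.51-fold lower, and the fold itself cannot be read.

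Sox7 (chromosome 14, 63943706 to 63950732) had signals of 671, 739, 667 and 555 in control lung. The 3 small pools were at 151, 147 and 148, the middle-sized tumors at 137, 108, 124 and 86.9, and the large tumors at 89.6, 109 and 113. Every tumor stayed above 70 and every one was below the lowest control. The log2 fold change was -2.45 (SE 0.15, limma adjusted p = 1.0e-08), and the exact two-sided permutation test of the 4 controls against the 10 tumors gave p = 0.0010 for each of Sox7, Sox17 and Sox18, the smallest value that the 1001 divisions of these arrays allow.

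By size, Sox7 was lower than control by a log2 fold change of -2.14 in small, -2.54 in middle-sized and -2.66 in large tumors (SE 0.17 to 0.19). The same values were -2.51, -2.70 and -2.72 for Sox17 (SE 0.20 to 0.22) and -2.48, -2.84 and -2.65 for Sox18 (SE 0.28 to 0.30). All 9 of these passed limma's adjusted threshold, and the 3 sizes share the same 4 control lungs. The mean Sox7 signal was highest in control lung, then in small (149 ± 1.73, SD, n = 3), middle-sized (114 ± 21.5, SD, n = 4) and large tumors (104 ± 12.5, SD, n = 3). Sox7 was lower in large than in small tumors by a log2 difference of -0.53 (95% interval -0.95 to -0.10), which did not pass the adjustment over all probe sets (limma adjusted p = 0.51). The level did not differ beyond the spread between middle-sized and large tumors for any of the 3 genes.

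**Figure D2:**
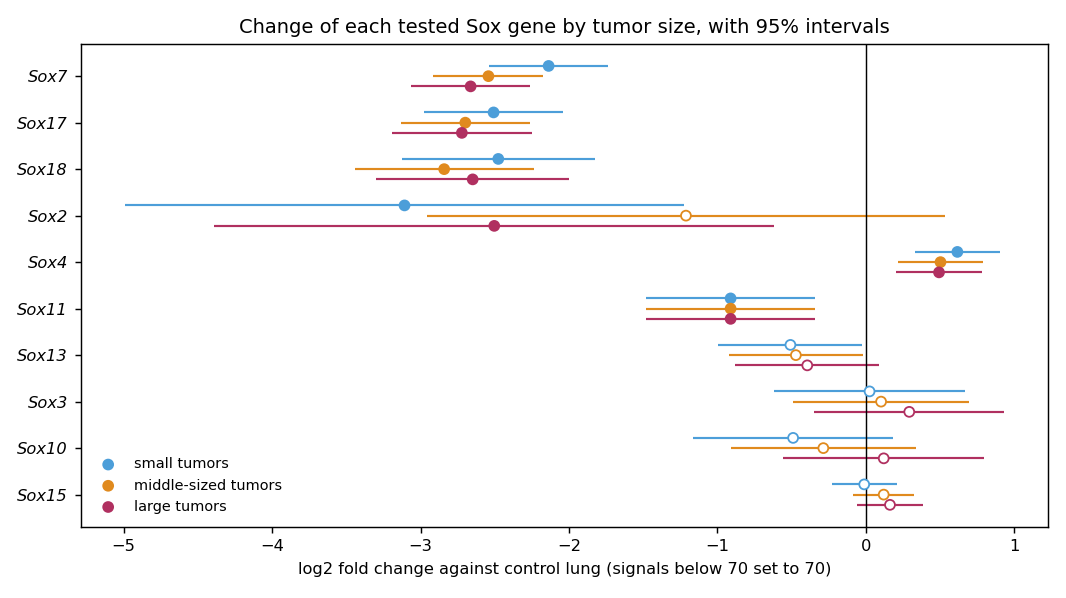
Log2 fold change of each tested Sox gene against control lung (x axis, signals below 70 set to 70) for small, middle-sized and large tumors, with 95% intervals as bars and filled points where limma's adjusted p was under 0.05. The SoxF genes lie between -2.84 and -2.14 in all sizes, Sox4 between 0.49 and 0.62, and the Sox2 intervals are the widest.

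The fall of the SoxF genes went together with that of endothelial genes. Of 31 genes listed for blood endothelium, 25 were tested, and 24 were lower in the tumors with a median log2 fold change of -2.82, beside 0.04 over all tested probe sets. Calcrl, Klf2 and Nos3 were below 70 in all tumors and passed the filter through control lung alone. Of the other 22 genes, 21 were lower, beside 19.2% of the 6747 tested probe sets not below 70 in all tumors. With signals floored at 70 the largest changes were in Thbd (thrombomodulin, -4.28), Cldn5 (a claudin of endothelial tight junctions, -4.24) and Ramp2 (a partner of the adrenomedullin receptor, -4.22). This order depends on the floor, since without it the first were Calcrl, the receptor partner of Ramp2 (-5.16), Thbd (-4.89) and the adhesion molecule Icam2 (-4.88). The remaining gene, Pecam1, had a mean signal of 103 in control lung and 145 in tumors and did not pass the test. The summed signal of the 22 endothelial genes with a value on every array ranged from 28783 to 34382 in control lung and from 2830 to 4934 in tumors. The size of the fall differed between single genes. Without the floor, Cdh5, the vascular endothelial cadherin, had a log2 difference of -3.21 and Kdr, the main VEGF receptor, -2.12. Icam2 and Klf2 had -4.88 and -4.70, with tumor signals that reached below 70. Cav1, Cd34 and Lyve1 had a value of 0 or next to it on the third middle-sized tumor, where they count as missing. In bulk tissue, fewer endothelial cells and less of a transcript in each cell cannot be told apart.

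Set beside the 25 endothelial genes, 16 fell more than Sox7, 14 more than Sox17 and 14 more than Sox18. To compare within each array, the mean log2 signal of the 22 endothelial genes with a value on every array was subtracted from each SoxF gene. With the floor at 70, this difference was 0.18 higher in tumors than in control lung for Sox7, and it was -0.01 for Sox17 and -0.04 for Sox18 (exact permutation test, p = 0.279, 0.916 and 0.916 adjusted over the 3 genes). Without the floor it was 0.71 higher for Sox7, which passed the exact permutation test (adjusted p = 0.0030). It was 0.35 and 0.50 higher for Sox17 and Sox18, which did not pass (exact permutation test, adjusted p = 0.202 and 0.0659). The 22 subtracted genes include Calcrl, Klf2 and Nos3, which passed the filter through control lung alone. Their log2 differences without the floor were -5.16, -4.70 and -3.09. Part of the endothelial fall was thus built in, and the Sox7 difference without these genes was not tested. A floor shortens the fall of a gene whose tumor signals lie below it, which holds for endothelial genes such as Thbd (mean 61.0 in tumors) and not for Sox7 or Sox18. Among the 10 tumors alone, Sox7 followed the endothelial mean with r = 0.74 (permutation test, p = 0.0134, adjusted over 6 relations p = 0.0806) and rho = 0.75 (permutation test, p = 0.0179, adjusted p = 0.108), and r was 0.70 without the second small pool and the first middle-sized tumor. Without the same 2 arrays, the r of 0.45 for Sox17 with the endothelial mean dropped to 0.07 and the 0.54 for Sox18 to 0.06, so that these rest on those arrays. The other 5 relations, of Sox17 and Sox18 with the endothelial mean and of the SoxF genes with one another, had r from 0.25 to 0.54 and none passed the adjustment.

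Other lung structures fell in the same tumors. All 10 smooth muscle genes, all 8 genes of alveolar type I cells, 5 of 5 lymphatic endothelial genes and 10 of 11 heart muscle genes (the wall of large pulmonary veins in mice holds heart muscle) were lower. Some of them, 7 in the heart muscle list, 3 in smooth muscle and 1 in the lymphatic list (Reln), were below 70 in all tumors with a value and passed the filter through control lung, so that a fall was built into their passing. Without them 3 of 4 heart muscle, 7 of 7 smooth muscle and 4 of 4 lymphatic genes were lower, beside 19.2% of the 6747 tested probe sets that were not below 70 in all tumors. In tumors the summed signal of each of the 4 lists did not reach that of the lowest control lung. The part of this tissue makeup in the SoxF values was not tested.

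Genes that SoxF factors are known to act on were mostly lower. Of 16 listed, 11 were tested, 8 were lower, 1 was higher and 2 did not pass, with a median log2 fold change of -1.86. Of all tested probe sets, 21.0% were lower and 23.6% higher. Cldn5, Cdh5 (-3.19) and Efnb2 (an ephrin of arterial endothelium, -2.92) fell most, and the first 2 of these also stand in the endothelial list. The log2 fold change was -2.10 for the VEGF receptor Kdr, also in the endothelial list, and -2.08 for the endothelial Notch receptor Notch4. Foxa1, a transcription factor of endoderm and lung epithelium, rose from a mean of 552 to 924 (log2 fold change 0.72, limma adjusted p = 0.0039). Gata4 (0.24) and Gata6 (-0.56) did not pass.

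**Figure D3:**
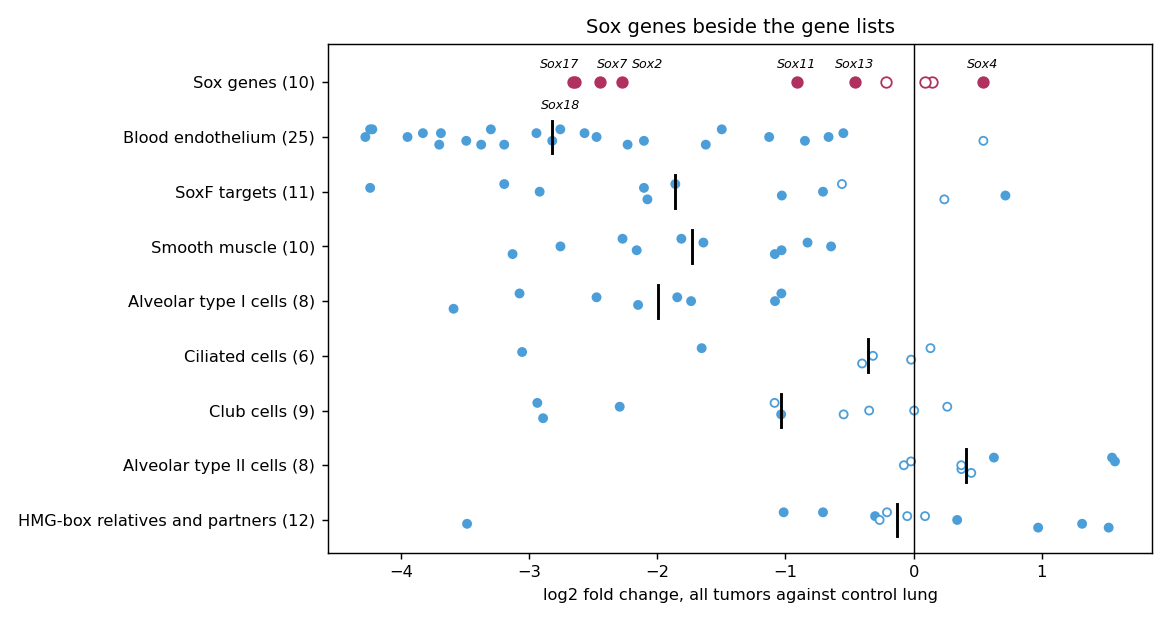
Log2 fold change of all tumors against control lung (x axis) for the 10 tested Sox genes (top) and for the tested genes of 8 lists, with 1 point per gene, filled where limma's adjusted p was under 0.05, and a bar at the median of each list. Sox7, Sox17 and Sox18 lie near the endothelial median of -2.82, and Sox4 lies to the right of 0.

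Sox2 (chromosome 3, 34649995 to 34652461) was low in most tumors but not in all. Its signals were 752, 578, 664 and 461 in control lung and 26.6, 49.4 and 36.3 in the small tumor pools. The middle-sized tumors gave 1853, 497, 60.4 and 71.6, and the large tumors 47.1, 246 and 11.1. The first middle-sized tumor was above all control lungs, the second lay within their range, and the other 8 tumors were below the lowest control. Over all tumors the log2 fold change was -2.27 (SE 0.68, limma adjusted p = 0.0141), whereas the exact permutation test, which does not rest on a normal spread, gave p = 0.0539. Without the first middle-sized tumor the log2 fold change was -2.59 (limma adjusted p = 0.0005), and with the unpaired test of the study's methods the call was lost after adjustment (adjusted p = 0.0591). Only 1 Sox2 probe set is on the array, and its mark stands for relaxed rules in the choice of probes.

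All 3 small pools were below 70 in Sox2, so that small tumors were at least 8.76-fold lower than control (limma adjusted p = 0.0129), and the fold itself cannot be read. Large tumors, 2 of 3 of them below 70, had a log2 fold change of -2.50 (SE 0.88, limma adjusted p = 0.0366). Middle-sized tumors had -1.21 (SE 0.81, limma adjusted p = 0.290), and -2.16 without the first of them (limma adjusted p = 0.0122). The call in large tumors was lost in 8 of 28 alternative settings, among them each setting that left out 1 control lung, with adjusted p up to 0.116. Middle-sized were above small tumors by 1.90 (95% interval 0.01 to 3.78, limma adjusted p = 0.767), so that no difference between sizes was shown.

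The array with the highest Sox2 signal was also high in airway genes. Foxj1, the regulator of motile cilia, was at 662, 569.6, 394 and 695 in control lung, at 1116 in the first middle-sized tumor and between 76.7 and 293 in the other 9. Among 5 ciliated cell genes with a value on every array, this tumor was the highest of the 10 tumors in 4, and among 9 club cell genes in 6, while it was the highest in 19.4% of 5687 tested probe sets with a value on every array. It held 3339 of Aldh1a1, an aldehyde dehydrogenase, against 304 to 1425 in the other tumors. The club cell genes in which other tumors were higher were Scgb1a1, Aldh1a7 and Ces1d. Scgb1a1 was at 8472 in this tumor, 8791 in the second middle-sized and 9957 in the second large one. The summed signal of the ciliated genes was 6338 in this tumor, within the 5953 to 6661 of control lung, and 1456 to 3317 in the others. Tuba1a made up 3669 of that sum, above its 2508 to 3018 in control lung. Pltp was at 1320, below its 2399 to 3447 there, so that the sum hides deviations in both directions. For club cells the sum was 28450 against 24967 to 36768 in control lung and 5472 to 23571 in the other tumors. Over all tumors, 2 of 6 ciliated genes tested (Pltp, -3.05, and Foxj1, -1.65) and 4 of 9 club cell genes (led by Aldh1a1, -2.94, Cyp2b10, -2.89, and Gsta3, -2.29) were lower and none was higher. These counts stand beside 21.0% lower and 23.6% higher of all tested probe sets. The part of airway tissue in the Sox2 signals was not tested.

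Over the 14 arrays the genes with the pattern most like Sox2, by Pearson's r of floored log2 signals among 6127 other tested genes, were Cckar, a cholecystokinin receptor (r = 0.99), Pxmp2, a peroxisomal membrane protein (0.94), the hydrolase Bphl (0.93 over 13 arrays), the transcription factor Myb (0.93) and the cytochrome P450 Cyp2s1 (0.92). These are descriptions over arrays that share the difference between lung and tumor. Cckar was at 411 to 626 in control lung, at 1683 and 565 in the first and second middle-sized tumors, at 168 in the second large tumor and between 19.5 and 93.2 in the other 7. Myb was at 1029 in the first middle-sized tumor and between 3.09 and 109 in the other 9. That tumor was the highest of the 10 in all 5 of these genes, which the choice by likeness to Sox2 favours.

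**Figure D4:**
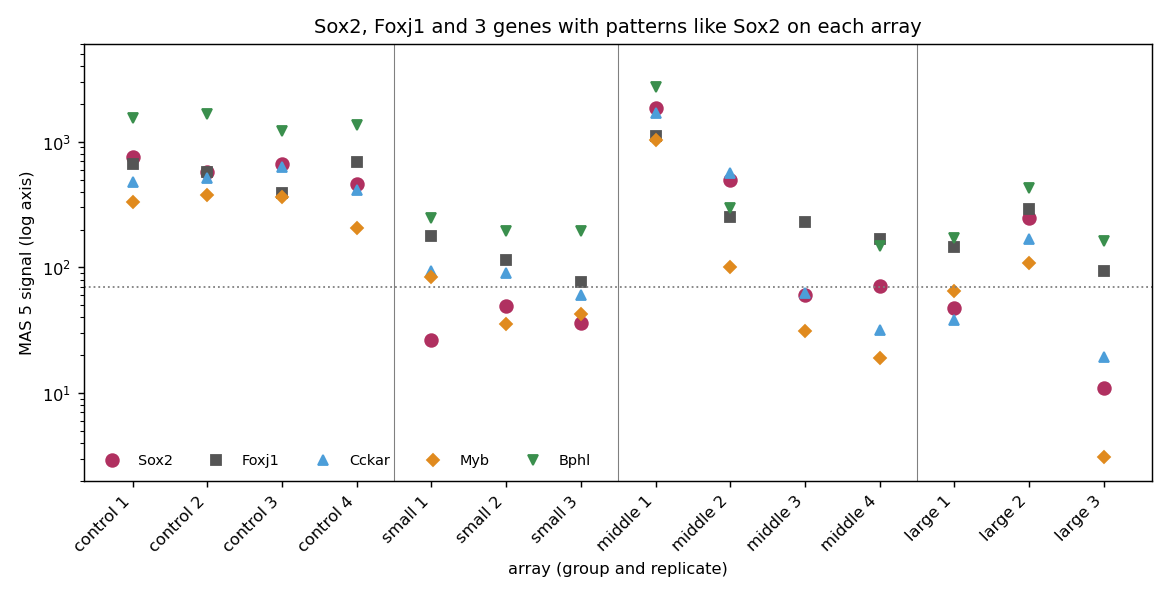
MAS 5 signal (log axis) of Sox2, of the cilia regulator Foxj1 and of 3 genes with patterns like Sox2 (Cckar, Myb and Bphl) on each of the 14 arrays, with a dotted line at 70 and grey lines between groups. The first middle-sized tumor holds the highest value of all 5 genes, 1853 for Sox2 and 1116 for Foxj1; Bphl is missing on the third middle-sized tumor.

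The other SoxB1 genes showed no change that passed. Sox3 had 4 probe sets, of which 1 was tested, with 102 to 184 in control lung and 97.2 to 232 in tumors. Its log2 fold change was 0.14 (95% interval -0.36 to 0.64, limma adjusted p = 0.663). The other 3 were below 70 on most or all arrays, the exception being a probe set with 3 of 14 arrays above it. Sox1 lay between 12.9 and 46.2 on every array, which is below 70, so that no difference was measurable.

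Sox4 (chromosome 13, 28948919 to 28953699) was the only Sox gene that rose. It was at 433, 499, 463 and 435 in control lung. The small pools were at 718, 681 and 703, the middle-sized tumors with a value at 567, 706 and 678, and the large tumors at 557, 708 and 674. All 9 tumors with a value lay above the highest control, and the values of the 3 sizes overlapped. The log2 fold change was 0.54 (SE 0.10, limma adjusted p = 0.0009), a 1.45-fold higher level, and the exact permutation test gave p = 0.0014, the smallest that 715 divisions allow. By size it was 0.62 in small, 0.50 in middle-sized and 0.49 in large tumors (SE 0.13, limma adjusted p = 0.0028, 0.0110 and 0.0102). Without the second middle-sized tumor the middle-sized call was just lost (0.44, limma adjusted p = 0.0511), and without the second large tumor the large one (0.42, limma adjusted p = 0.0503).

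The third middle-sized tumor had a value next to 0 on this probe set, and where it was kept as deposited, Sox4 passed in no comparison and its direction in middle-sized tumors was turned (-0.30, limma adjusted p = 0.730). On a second Sox4 probe set, which gave that tumor a value, control lung was at 353, 361, 448 and 233. The small pools had 625, 744 and 555 there, the middle-sized tumors 327, 651, 219 and 637, and the large tumors 697, 431 and 509.8. The groups overlapped, since the first middle-sized and the second large tumor lay within the control range and the third middle-sized tumor lay below it. Its log2 fold change was 0.62 (SE 0.29), close to that of the first probe set but with a wider spread, and did not pass (limma adjusted p = 0.166 in the fit over all 12422 probe sets, of which 13.3% were higher and 12.3% lower).

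Genes with a pattern like Sox4 over the arrays were Larp1, an RNA-binding protein (r = 0.95), Nop58, a nucleolar protein of ribosome biogenesis (0.95), the mitochondrial ribosome proteins Mrpl52 and Mrpl15 (both 0.95) and Aimp2, of the tRNA synthetase complex (0.95), each over 13 arrays. All 5 were higher in the tumors, with log2 fold changes from 0.77 to 2.07. Here too r was taken of floored log2 signals. Within the tumors alone, over 9 values, the most like were Comtd1 (0.96), Ube2d3 (0.91), Nudt19 (0.91), Lsg1 (0.91) and Mrpl16 (0.90), none of which is among the first 5. Spearman's rho of these was lower, from 0.43 (Lsg1) to 0.77 (Nudt19), so their likeness by rank was weaker.

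Sox11 (chromosome 12, 27334268 to 27342718), the other SoxC gene here, was lower. Control lung had 238, 139.7, 76.5 and 118. The small pools were at 36.3, 32.3 and 66.0, the middle-sized tumors with a value at 26.2, 14.3 and 54.1, and the large tumors at 49.8, 65.1 and 61.7. All 9 tumors were below 70 and all control lungs above it, with the third control at the edge. The mean was at least 2.04-fold lower in tumors, with limma adjusted p = 0.0029 over all tumors and 0.0152 to 0.0176 by size. Since Sox11 passed the filter through the control lungs alone, a fall was built into its passing. These p-values are therefore no independent support for it. By size, the call was lost in 3 or 4 of 27 settings, such as a model of only the groups compared (adjusted p 0.0576 to 0.0831). A second Sox11 probe set was below 70 on all arrays, from 9.19 to 32.6 in control lung and from 0.53 to 8.27 in tumors.

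The transgene of these mice encodes c-Myc, which with its partner Max binds the E-box CACGTG and, among related sites, CACGCG. The 250 bases before the start site were therefore searched for these letters on both strands in RefSeq promoters (GRCm38.p6). Of the 13 genes, 8 had such a window. Sox3, Sox7, Sox10, Sox17 and Sox18 had none, so that no SoxF gene was searched. CACGTG was in none of the 8, beside 6.86% of 27025 genes, and CACGCG was in 3 (Sox4, Sox5 and Sox11), beside 8.66%. The windows of Sox4 and Sox11 are shown because these genes carry a match and moved in opposite directions. Capitals mark CACGCG, which begins 137 bases before the Sox4 start and 216 before the Sox11 start. The Sox4 window is chr13:28953700-28953949 and the Sox11 window chr12:27342719-27342968, both on the minus strand and written 5′ to 3′ along the gene.
Sox4: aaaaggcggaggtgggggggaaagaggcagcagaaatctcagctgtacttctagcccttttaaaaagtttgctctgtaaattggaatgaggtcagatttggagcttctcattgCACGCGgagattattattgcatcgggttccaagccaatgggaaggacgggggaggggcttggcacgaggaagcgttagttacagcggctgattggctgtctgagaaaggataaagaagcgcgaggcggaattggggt
Sox11: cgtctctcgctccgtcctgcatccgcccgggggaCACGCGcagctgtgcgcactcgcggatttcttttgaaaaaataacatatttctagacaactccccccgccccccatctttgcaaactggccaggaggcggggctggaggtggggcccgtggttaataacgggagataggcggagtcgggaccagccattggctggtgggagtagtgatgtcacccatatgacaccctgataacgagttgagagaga
The window of Sox2 held neither motif. The Sox motifs AACAATG and AACAAAG, in 3.78% and 5.77% of all genes, were each found in 1 member, Sox6. Of the SoxF target genes, 7 had a window, and among these CACGTG was in Lef1 and AACAAAG in Foxa1. A match describes the letters of this window and no binding was measured.

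Sox13 (chromosome 1, 133382300 to 133424459), the SoxD gene with signal, was 570.0, 889.7, 649 and 797 in control lung. The tumors ranged from 329 to 708 with a median of 534, and the groups overlapped, the first middle-sized and the second large tumor lying above the lowest control. The log2 fold change was -0.46 (SE 0.18, limma adjusted p = 0.0470). This call was lost in 13 of 28 alternative settings, among them scaling each array to 1 median (-0.32, adjusted p = 0.133) and leaving out any control lung but the first (adjusted p 0.0629 to 0.172). No single size passed (-0.51, -0.47 and -0.39, limma adjusted p = 0.0949, 0.103 and 0.188). Sox5 (4.39 to 35.2) and both Sox6 probe sets (0.86 to 66.0) were below 70 on all arrays with a value.

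Sox10 had 1 tested probe set, with 122, 134, 118 and 199.97 in control lung and 72.5 to 206 in tumors. The groups overlapped and the log2 fold change was -0.22 (95% interval -0.74 to 0.31, limma adjusted p = 0.504). Sox15 was at 34.5, 11.96, 32.6 and 72.1 in control lung and at 45.2 to 86.9 in tumors, 5 of 10 tumors and 1 of 4 control lungs reaching 70. Its log2 fold change was 0.09 with the floor at 70 (limma adjusted p = 0.386), but 0.60 with a floor of 35 (adjusted p = 0.0461) and 0.99 without one (adjusted p = 0.0315), values that rest on signals below 70.

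By size, small tumors had 1 Sox gene higher (Sox4) and 5 lower (Sox2, Sox7, Sox11, Sox17 and Sox18) than control lung, beside 19.9% and 16.7% of all probe sets. Middle-sized tumors had Sox4 higher and 4 lower, without Sox2, beside 15.8% and 16.4%. Large tumors had the same 6 calls as small ones, beside 19.8% and 18.3%. In each size the lower genes include Sox11, whose fall was built into its passing the filter. Between sizes no Sox gene passed limma's adjusted threshold in any of the 3 comparisons, in which 0 to 2 of all 6914 probe sets did (0 to 0.0289%). At an unadjusted p under 0.05, 2 of 10 Sox genes (Sox7 and Sox2) passed between middle-sized and small tumors, beside 6.49% of all probe sets. Between large and small tumors it was 1 (Sox7), beside 8.10%, and between large and middle-sized ones 0, beside 9.79%. Their limma p before adjustment was 0.0196 to 0.0488, and none is read as a difference.

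Of 23 listed HMG-box relatives and partners of Sox proteins, 12 were tested, 4 were higher, 4 lower and 4 did not pass, beside 23.6% higher and 21.0% lower of all probe sets, with a median log2 fold change of -0.13. The chromatin protein Hmgb3 rose from a mean of 381 to 1102 (log2 fold change 1.52), and the values were 1.31 for Hmgb2, 0.97 for the Wnt effector Tcf7l1 and 0.34 for Ctnnb1, β-catenin. Tcf21, a factor of lung mesenchyme that carries no HMG box, had a log2 fold change of -3.48, the remodeler Chd7 -1.01, Lef1 -0.71 and Mef2c -0.30, all lower. Mef2c was below 70 in all tumors and passed the filter through control lung alone.

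Of the SoxF genes' nearest patterns over the arrays, Sox17 was most like 6330403K07Rik, Igtp, Thbd, Ramp2 and Chia1 (r = 0.99 each) and Sox18 most like Arap3, Igtp, Pdgfrb, Ace and Myzap (0.98 to 0.99), each over 13 or 14 arrays. Thbd and Ramp2 are the endothelial genes named above, and Ace is the angiotensin-converting enzyme of lung capillaries. All of these fell in the tumors, with log2 fold changes from -4.28 to -1.17. Among the tumors alone Sox17 was nearest to Polr2c and to Cxcl12, an endothelial and stromal chemokine (r = 0.91 and 0.90), then Plod3, Mag and Ubap2l (0.85 to 0.86), and Sox18 to Stat6 (0.97), Arap3 (0.93), Pdgfrb (0.91), Mid1ip1 (0.91) and Aard (0.91). Spearman's rho was 0.69 for Arap3 and 0.56 for Aard, and 0.80 to 0.98 for the others. All of these were taken from log2 signals floored at 70, so that tumors below 70 are tied. Sox17 itself was below 70 in 4 of 10 tumors. Tumor signals were 58.6 to 111 for Arap3, 25.1 to 149 for Aard and 5.00 to 80.1 for Myzap. These are descriptions over 9 or 10 values of arrays that also share scaling and size groups.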

How the data were processed

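Total RNA of 4 control lungs and 10 c-Myc tumor samples (3 small pools, 4 middle-sized, 3 large) had been hybridized to Affymetrix Murine Genome U74v2 arrays. The deposited values are signal intensity from MAS 5.0 (credited to the submitters' processing notes), which the authors scaled to a target of 250 on each array. These were read for 12422 probe sets, leaving out 66 control probe sets. Of these, 10833 had 1 gene symbol in the platform annotation, 396 had several and 1193 none. Values below 1e-06 were treated as missing. Intensities were set to at least 70 and log2 transformed. A 4-group model was fitted with limma 3.58.1 (R 4.3.3, eBayes with trend, Benjamini-Hochberg over 6914 probe sets, threshold 0.05), using for each symbol the probe set with the highest mean signal. Other Sox probe sets were taken from the same model over all 12422. In all, 7 comparisons were made: each size and the mean of the sizes against control, and the 3 pairs of sizes. All tumors were also compared with control by an exact permutation test. The number of arrays, not a read depth, limits the precision.

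The Sox genes and 18 gene lists were chosen with earlier results of these data known. Named were all Sox probe sets, the 3 called genes of each list with the largest change and any called against the majority, and the 5 genes most correlated with each of Sox2, Sox4, Sox17 and Sox18. Some other list members (Cdh5, Kdr, Notch4, Gata4, Gata6, Pecam1, Tcf7l1, Ctnnb1, Chd7, Lef1, Mef2c, Scgb1a1, Aldh1a7, Ces1d and Tuba1a) were named after their values were seen. The script was tested on simulated data. Alternatives tried were other floors, normalizations, filters and models, the replicate number as a block and leaving out each array. The comparison of SoxF genes with the endothelial mean was added after the data had been seen. Gene positions and promoters are RefSeq's on GRCm38.p6.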

Additional observations from a re-analysis of the deposited data

How the results depend on the processing

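Sox7, Sox17 and Sox18 kept their fall and their call in all 4 comparisons with control under all 28 alternatives run, with log2 fold changes over all tumors from -2.53 to -2.31, -2.84 to -2.51 and -2.79 to -2.52. Sox2 over all tumors ranged from -2.94 to -2.06 and lost its call with the methods' t-test after adjustment; its exact permutation p was 0.0380 with a floor of 35. The number of Sox genes higher over all tumors was 2 with a floor of 35 and 2 without a floor, where Sox15 was added, and the same 2 values held for middle-sized tumors. It was 0 over all tumors and in each size where values next to 0 were kept as deposited. Leaving out 1 array, it ranged from 0 to 1 in middle-sized and from 0 to 1 in large tumors. In middle-sized tumors Sox4 then had -0.30 with values next to 0 kept. By the methods' t-test without adjustment, 2 Sox genes passed between large and small tumors, as did 686 of all 6914 probe sets. Relative to the endothelial mean, Sox17 was at 0.35 and Sox18 at 0.50 without a floor, against values just under 0 with it.

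Scaling each array to 1 median moved the median log2 fold change of all tested probe sets from 0.04 to 0.15. With it the genes called higher were 1 for blood endothelium, 5 for alveolar type II cells and 2 for macrophages. Without a floor, 0 genes of the basal and neuroendocrine list were lower. The floor was a limit for Sox2, Sox11 and Sox17, whose tumor signals lay partly or wholly below 70.

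Samples with the same replicate number did not deviate together (correlations of deviations from the group means between -0.23 and 0.13), so the numbers do not pair them. With the replicate number as a block, 1 Sox gene was higher and 6 were lower over all tumors, as without it, and 1533 against 1631 probe sets were higher. It changed no call of a Sox gene in the comparisons with control.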

Other observations

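Other groups of genes describe the tissue in which the Sox genes were measured, all as log2 fold changes of all tumors against control lung, understated where signals lay below 70. The counts below stand beside 21.0% lower and 23.6% higher of all tested probe sets. Genes below 70 in all tumors passed the filter through control lung alone, so that a fall was built into their passing. Of the genes named below this holds for Cnn1, Myh11, Myl7, Myl4, Myh6 and Sema3f. Counted but not led by are Reln, Smtn, Csrp3, Myl3, Tnnc1, Tnnt2 and Gzma, for which it holds as well. Of 7 lymphatic endothelial genes 5 were tested and all were lower, led by Lyve1 (-3.69), Pdpn (-3.07) and Flt4 (-1.77, the VEGF receptor of lymph vessels), with a median of -1.77. All 8 alveolar type I genes tested were lower (median -1.996), led by Igfbp2 (-3.59), Pdpn (also in the lymphatic list) and Cav1 (-2.47). All 10 smooth muscle genes were lower (median -1.73), led by Myh11 (-3.13), Cnn1 (-2.75) and Acta2 (-2.27). Heart muscle had 10 of 11 lower (median -2.66), led by Myl7 (-4.31), Myl4 (-3.89) and Myh6 (-3.31). Of 14 fibroblast and matrix genes 7 were lower (median -0.58), led by Tcf21 (-3.48), Inmt (-3.40) and Mfap4 (-3.21). Lymphocyte genes were lower in 5 of 8 (median -0.60), led by Ptprc (-1.72), Cd79a (-1.66) and Ms4a1 (-1.46). Without Gzma, 4 of 7 were lower, beside 19.2% of the 6747 tested probe sets not below 70 in all tumors.

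Of the epithelial lists, alveolar type I, club and ciliated cells had lower genes and no higher ones. Alveolar type II cells had 3 of 8 genes higher (Fasn, 1.57, Cebpa, 1.55, and Sftpb, 0.63) and none lower, with a median of 0.41. Genes of the embryonic lung bud tip were higher in 3 of 9 (Shh, 1.31, Fgfr2, 0.76, and Foxa1, 0.72; median 0.21), where 23.6% of all tested probe sets were higher. Macrophage genes had 1 higher (Cd14, 1.08) and 2 lower (Csf1r, -1.06, and Mrc1, -0.70) of 10, with a median next to 0. Of 11 genes of TGF-beta signaling and epithelial-mesenchymal transition, 5 were lower, led by Zeb1 (-2.88), Sema3f (-2.05) and Tgfb1 (-1.75), and Ezh2 was higher (1.24; median -0.28). Schwann cell and neural crest genes, a setting of Sox10, had 2 higher (Mal, 1.23, and Erbb3, 1.13) and 1 lower (Pmp22, -3.34) of 7, with a median of -0.02. None of 3 cartilage genes tested passed, and of 2 basal and neuroendocrine airway genes Uchl1 was lower (-0.80).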
